A study of Mus musculus with 13 samples.

Results

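The miRNAs described here are the mouse miRNAs numbered miR-6900 to miR-6999. They were taken by name from the table of Argonaute-bound miRNAs, with every row in that number range kept and both arms counted. The range held 195 of the 1705 miRNAs in the table, 98 of them 5p arms and 97 of them 3p arms. They came from 100 hairpins, of which 95 had both arms in the table and 5 had 1 arm (miR-6904-5p, miR-6941-3p, miR-6956-5p, miR-6965-5p and miR-6968-3p). Together they held 49487 of 408129 miRNA tags, or 12.1% of the tags on 11.4% of the rows.

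Argonaute (AGO) proteins use a bound miRNA as a guide to the RNAs they repress. In AGO CLIP, tissue is irradiated with ultraviolet light, AGO is precipitated and the RNA bonded to it is read. A read fragment is a tag. Wild-type C57BL6 mice aged 7 to 8 weeks gave cortex in 3 groups: sham surgery without a filament (4 libraries, replicates 1, 2, 3 and 5), the contralateral hemisphere after middle cerebral artery occlusion (MCAO; 4 libraries, replicates 1, 2, 4 and 5) and the ipsilateral hemisphere of MCAO animals (5 libraries, replicates 1 to 5). The occlusion lasted 35 min, recovery 3 h, all groups had isoflurane, and AGO complexes of high and low molecular weight were pooled in every library. A replicate number stands for a separate day of surgery, and the labels do not give the animals per library. The labels also do not say whether ipsilateral and contralateral libraries of 1 number shared animals.

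A mirtron is a miRNA whose precursor is made by splicing. In the usual pathway the nuclease Drosha, with its partner Dgcr8, cuts the hairpin out of a longer transcript. A mirtron skips that step: the spliceosome frees the intron, the debranching enzyme Dbr1 opens the lariat, the exporter Xpo5 carries the hairpin out, and Dicer1 cuts it into a 5p and a 3p arm. In a tailed mirtron the hairpin fills only 1 end of the intron and the rest is trimmed. Because the 3′ end of a mammalian intron has a polypyrimidine tract and a final AG, the 3p arm of a mirtron with its hairpin at that end carries those letters.

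The mature sequences that the results turn on are printed 5′ to 3′ from RefSeq (GRCm38.p6), with the seed, bases 2 to 8, in capitals. The seed is the stretch that pairs with target RNAs. Of the 195 members, 158 matched a RefSeq entry by name. The first set holds 6 of the members with the most tags, and shows their runs of pyrimidine (3p arms) or purine (5p arm).
miR-6984-3p: uACUUUCUuuccugucuuucu
miR-6946-5p: aAAAGGGAgagaaagaaaugc
miR-6946-3p: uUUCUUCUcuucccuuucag
miR-6975-3p: uCUCUCCUuucuccuccuag
miR-6957-3p: uGGAUCUCuuguuuucucuucc
miR-6961-3p: uCCUCUUUcuuccuggcucuag
The second set holds 3 of the 5 members with the lowest levels, each of which contains a CG.
miR-6959-3p: cUGCACCGaccugcucucccag
miR-6977-3p: aAGGCGUUgccugacccugacc
miR-6933-5p: uGGCGGCAgucaggauaccugu
The third set holds arms named below for their arm ratio or for a difference between days or groups.
miR-6935-3p: uGUUCUUUgucuuuccacag
miR-6931-5p: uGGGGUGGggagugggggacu
miR-6991-5p: uGGAGAACagggacugggccug
miR-6964-3p: uUUCUUGUcuuccacucuag
miR-6938-3p: uCAUCUGGggcugucuccuuag
miR-6901-3p: gACCUUCUguguucuugcag
The last set gives the 4 pairs of members that share a seed.
miR-6916-5p: cAGGAGGAuggagaugaguca
miR-6942-5p: uAGGAGGAggggaacauuugc
miR-6904-5p: uCCUGGGGuuagaguugagugg
miR-6914-5p: uCCUGGGGuggugguggccacaga
miR-6927-3p: cCUGAGCUggcuccccugcag
miR-6945-3p: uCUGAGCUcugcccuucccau
miR-6922-5p: uGUGGGAGgggacuguagagagg
miR-6993-5p: aGUGGGAGaaacgggugucuguc

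The libraries held 3851 to 61708 miRNA tags, and the median miRNA of a library had 1 to 24 tags. Ipsilateral replicate 5 was the shallowest, with a median of 1 tag. The 3 libraries of replicate 1 stood apart in the second table, of AGO peaks on other RNAs: peaks in introns or between genes held 50.4% to 60.4% of their tags, against 17.5% to 44.2% in the other 10. Brain markers were present, but not all were high. Relative to the median miRNA of its library, averaged over the 13 libraries, the neuronal miR-124-3p stood at 29.1 and miR-9-5p at 3.20, while miR-128-3p, also a neuronal miRNA, stood at 0.62. The liver miRNA miR-122-5p stood at 0.89 on the same scale, and the muscle miRNAs miR-206-3p and miR-1a-3p at 1.29 and 0.39.

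The members sat close to the level of the median miRNA. A member's level is its tags divided by the median count over all 1705 miRNAs of that library, averaged over the 13 libraries; mature arms are of similar length, so levels were not scaled by length. The median member had a level of 1.20, and levels ran from 0.28 to 13.4. Of the 195 members, 149 (76.4%) lay between 0.5 and 2, 31 above 2 and 15 below 0.5. The 1510 other miRNAs had a median level of 1.01, with 72.8% of them between 0.5 and 2. The 189 miRNAs of the neighbouring numbers, miR-7000 to miR-7099, had a median of 1.13. Against the median of miRNAs with at least 200 tags over the 13 libraries, the members' median fell to 0.69. These are descriptions of the table, with no test.

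Well-studied miRNAs were not all above the members. The let-7 family represses growth genes and is abundant in brain. The level of let-7a-5p was 0.95, and 128 members (65.6%) lay above it. The level of let-7b-5p was 0.44, below 185 members. Its relatives let-7c-5p and let-7f-5p stood at 1.87 and 1.61, with 36 and 56 members above them. The 15 listed brain miRNAs found in the table had a median level of 2.09, and 0 members reached miR-26a-5p (34.1) or miR-124-3p (29.1). The 8 arms of earlier mouse mirtrons had a median level of 0.97. Of these, miR-877-3p stood at 3.53, miR-1224-3p at 2.72, miR-1224-5p at 1.67 and miR-1981-3p at 1.015. Below 1 were miR-1981-5p (0.92), miR-877-5p (0.70), miR-702-5p (0.57) and miR-702-3p (0.31).

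**Figure D1:**
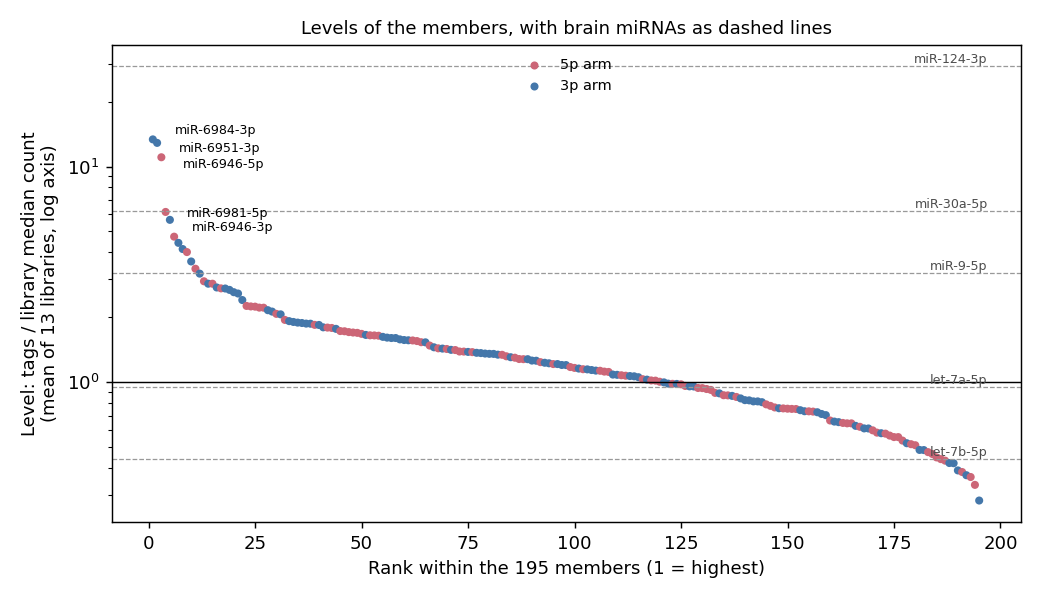
Level of each of the 195 members (tags divided by the median miRNA count of the library, mean of 13 libraries, log axis) by rank, with 5p arms in red, 3p arms in blue and 5 brain miRNAs as dashed lines. The curve falls steeply over the first 12 members, all at 3 or more, and then stays near the line at 1.

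A small number of members carried far more tags than the rest. The 12 members at 3 or more times the library median were 7 3p arms and 5 5p arms, and 12 is 6.15% of the members, beside 6.16% of the other miRNAs. The highest was miR-6984-3p at 13.4 ± 11.3 (SD, n = 13), from the 3′ end of an intron of Mrpl21, a mitochondrial ribosomal protein gene (mm10, chr19:3288961-3288981, plus strand). The next were miR-6951-3p at 12.9 ± 6.79 (SD, n = 13), from an intron of Azin1, which stabilizes ornithine decarboxylase, and miR-6946-5p at 11.04 ± 5.11 (SD, n = 13), from an intron of Sec24c, a coat protein gene of vesicles leaving the endoplasmic reticulum (chr14:20690640-20690660, plus strand). These 3 had overlapping levels across libraries. Without ipsilateral replicate 5, whose median count of 1 makes its levels coarse, miR-6951-3p stood at 11.11 and miR-6984-3p at 10.97, so the order of those 2 turned.

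The other 9 were miR-6981-5p (6.16), miR-6946-3p (5.66), miR-6951-5p (4.73), miR-6975-3p (4.43, an intron of the RNA helicase gene Ddx39b), miR-6957-3p (4.15, Grap2, an adaptor protein gene of T cells), miR-6976-5p (4.01, the transcription factor gene Srf), miR-6929-3p (3.63), miR-6984-5p (3.36) and miR-6961-3p (3.19, Bin2). Both arms of miR-6946, miR-6951 and miR-6984 were in this set, and over the 95 hairpins the levels of the 2 arms had a Spearman rank correlation of 0.20. The correlation is a description: both arms share the same libraries and depth.

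At the other end stood miR-6959-3p at 0.28, miR-6979-5p at 0.33, miR-6982-5p at 0.36, miR-6977-3p at 0.37 and miR-6933-5p at 0.38. In miR-6959-3p, from the last bases of an intron of Sbf1, the counts were 4, 5, 6 and 7 tags in the sham libraries, 7, 5, 2 and 0 in the contralateral and 3, 3, 7, 2 and 0 in the ipsilateral. Its 2 libraries at 0 were contralateral replicate 5 and ipsilateral replicate 5, where a count of 0 allows up to 2.05 and 7.79 tags per 10000 miRNA tags. In ipsilateral replicate 5, 57 of the 195 members were at 0. No other library had more than 8 at 0, and 9 had 0 such members. Every row of the table held at least 50 tags in all, so members below that total are not analysed here.

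The members' order was shared between libraries. Spearman rank correlation of member counts between pairs of libraries was 0.46 to 0.89 with a median of 0.72 (78 pairs), and 0.67 to 0.89 in the 45 pairs without the 3 shallowest libraries. The count behind a typical member was low: the median member had 1 to 27 tags per library.

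The 3p arms carried the letters of a 3′ splice site. Of 79 3p members with a sequence, 61 (77.2%) ended in AG, against 57 of 447 3p arms (12.8%) outside the 6900s and 7000s and 80.7% of 3p arms in the 7000s. Their mean composition was 38.8% C and 32.2% U, with a longest pyrimidine run of 8 bases in the median arm, against 4 in the other 3p arms. The 79 5p members were the reverse, with 43.5% G and a longest purine run of 6 in the median arm. In miR-6946-3p, printed above, the run of U and C goes on up to the closing AG. These features come from RefSeq, not from the tags.

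The position of the hairpins in introns was computed from the GENCODE M21 annotation (GRCm38, the assembly of mm10). With a tolerance of 8 bases, 91 of 100 member hairpins had their 3′ end at the 3′ splice site of an intron, 7 filled an intron from end to end, and 2 (miR-6927 in Mllt6 and miR-6977 in Ptprs) had only their 5′ end at a splice site. For the 847 other hairpins matched by name, outside the 7000s, 48 (5.67%) touched a splice site at either end, and in the 7000s 93 of 97 did. The members' introns were 67 to 19696 bases long, with a median of 366. Of 79 3p arms with a position, 60 ended on the last base of the intron, and all 60 of those ended in AG. The shortest intron, of 67 bases in Skiv2l, was filled from end to end by the miR-6970 hairpin. The 7 hairpins that filled an intron had 5p and 3p arms with median levels of 1.71 and 1.26, beside 1.12 and 1.27 for those at the 3′ end only.

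Level followed base content within the class. In the 79 3p arms, the Spearman rank correlation of level with the share of U was 0.74, and it was 0.62 in 3p arms of the 7000s and 0.30 in those of the remaining miRNAs. With the arms split into 4 parts of near-equal number by their U, the median level was 0.73 in the part with least (14.3% to 23.8%), then 1.17 and 1.26, and 2.14 in the part with most (39.1% to 61.9%). Among these 79, miR-6984-3p had both the highest level and the most U, at 61.9%. The second highest member, miR-6951-3p, had no sequence and is not part of these values. In the 79 5p arms the rank correlation of level with the share of A was 0.53, beside 0.42 in 5p arms of the 7000s and 0.18 in those of the remaining miRNAs. Among the 79, miR-6946-5p, at 57.1% A, had both the most A and the highest level. These points share libraries and depth, and no p is given.

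**Figure D2:**
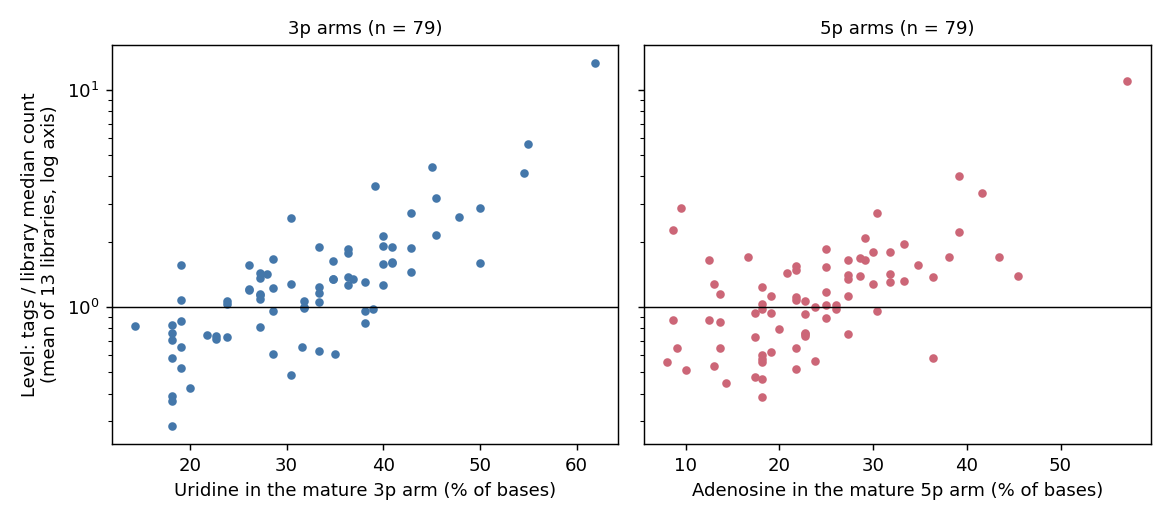
Level of each member (mean of 13 libraries, log axis) against the share of uridine in 3p arms (left, n = 79) and of adenosine in 5p arms (right, n = 79). Each point is a miRNA; levels rise with both shares, up to miR-6984-3p at 13.4 on the left and miR-6946-5p at 11.04 on the right.

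Other letters went with level too. The 16 3p arms that held a CG had a median level of 0.63, against 1.34 in the 63 without. For the 15 5p arms with a CG it was 0.89, against 1.26 in 64 without. This was not particular to the class. In the 7000s the medians with and without a CG were 0.71 and 1.34 in 3p arms and 0.86 and 1.10 in 5p arms. In the remaining miRNAs they were 0.63 and 1.09 in 3p arms and 0.68 and 1.15 in 5p arms. Arms were also scored by how often their 12-base stretches occur in annotated transcripts, as the mean count per stretch over the longest transcript of each of 55450 genes. No gene was left out, so a member's own hairpin gene and its host gene are among them. The Spearman rank correlation of level with that count was 0.51 in 5p and 0.43 in 3p members. It was 0.49 and 0.58 in the 5p and 3p arms of the 7000s, and 0.33 and 0.36 in those of the remaining miRNAs. The score was 75.8 for miR-6946-5p and 39.5 for miR-6984-3p, against a median of 18.7 for 5p and 20.0 for 3p members. How the submitters assigned a tag to a miRNA when other RNAs hold the same stretch is not given in the sources used here.

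Seeds were mostly private to a member. The 158 sequences held 154 seeds, and 4 seeds were shared by a pair of members each. Levels within the pairs were not tested for a difference. They were 1.95 in miR-6916-5p and 1.68 in miR-6942-5p, whose tags over all libraries were 282 and 272. For miR-6904-5p and miR-6914-5p they were 0.86 and 1.64. The third pair, miR-6927-3p and miR-6945-3p, stood at 0.52 and 1.16. In the last pair miR-6922-5p stood at 1.12 and miR-6993-5p at 0.52. In all, 27 members shared a seed with a miRNA outside the range, the last pair included. Among them miR-6935-3p shared its seed with miR-7092-3p, which stood at 20.1, and miR-6932-3p with the passenger strands miR-26a-2-3p and miR-26b-3p.

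Both arms of most hairpins had tags, and the 3p arm more often had more. In edgeR's quasi-likelihood test of the 2 arms with library as block (Benjamini-Hochberg adjusted p under 0.05 over all 622 hairpins with both arms), 42 of 95 member hairpins (44.2%) had more 3p tags and 27 (28.4%) more 5p tags. Over all 622 hairpins, 35.5% were called for 3p and 33.9% for 5p. The share with more 3p tags was thus 44.2% in the class and 34.0% in the 527 other hairpins, and this difference was not tested. The median log2 ratio of 5p to 3p tags was -0.25 in the members. A 4-fold difference was passed by 2 member hairpins (2.11%), against 5.95% of all hairpins. A 2-fold difference was passed by 30 (31.6%), against 32.6%. The median absolute log2 ratio was 0.75 in members and 0.65 in all hairpins. Each listed arm held at least 50 tags, which limits the ratio that hairpins of few tags can show.

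The largest bias was that of miR-6981, with 987 5p and 82 3p tags. Its 5p tags were 153, 88, 48 and 58 in the sham libraries, 177, 82, 33 and 42 in the contralateral and 84, 94, 87, 29 and 12 in the ipsilateral, and its 3p tags were 12, 8, 8 and 6 in sham, 7, 4, 2 and 3 in contralateral and 6, 10, 16, 0 and 0 in ipsilateral libraries. The 5p arm was higher in 13 of 13 libraries, and the log2 ratio was 3.56 (SE 0.17, edgeR adjusted p = 2.69e-29). The next hairpins with more 5p tags were miR-6970 (332 against 83), miR-6931 (536 against 138), miR-6978 (477 against 151) and miR-6940 (218 against 69).

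The largest bias the other way was that of miR-6935, from an intron of the cytoplasmic actin gene Actg1 (its 3p arm at chr11:120347350-120347369, minus strand). Its 3p arm had 71, 37, 22 and 34 tags in the sham libraries, 78, 52, 12 and 14 in the contralateral and 50, 44, 46, 8 and 6 in the ipsilateral. The 5p arm had 7, 10, 4 and 7, then 9, 9, 3 and 0, then 11, 10, 6, 4 and 0. The 3p arm was higher in 13 of 13 libraries, with a log2 ratio of 5p to 3p of -2.53 (SE 0.17, edgeR adjusted p = 2.99e-22). It was followed by miR-6979 (63 5p against 238 3p tags), miR-6952 (85 against 313), miR-6984 (521 against 2085) and miR-6987 (135 against 411). Across 72 hairpins with both sequences, the log2 ratio of 5p to 3p had a rank correlation of -0.45 with the U share of the 3p arm and of 0.01 with the A share of the 5p arm.

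**Figure D3:**
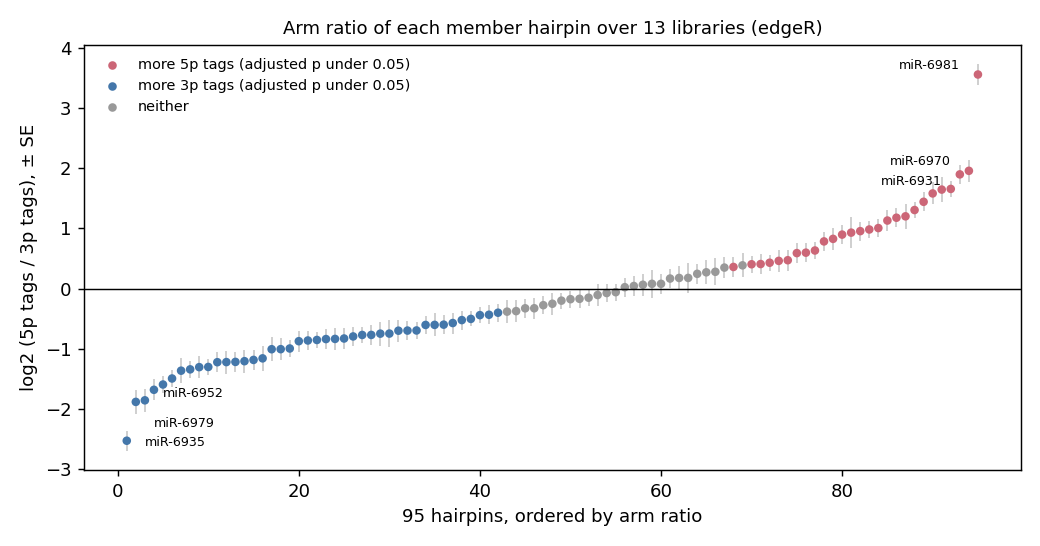
Log2 ratio of 5p to 3p tags for the 95 member hairpins, ordered, with bars of ± 1 SE derived from edgeR's F statistic over 13 libraries. The 42 blue points have more 3p tags and the 27 red points more 5p tags at an adjusted p under 0.05, and miR-6981 (3.56) and miR-6935 (-2.53) are the 2 ends.

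The class share of the library overlapped between the groups. The members took 12.2%, 11.6%, 12.2% and 11.4% of miRNA tags in the sham libraries, 12.5%, 12.7%, 11.3% and 12.6% in the contralateral and 12.2%, 11.7%, 12.2%, 12.4% and 12.9% in the ipsilateral. Within days of surgery, the contralateral share was above the sham share in 3 of 3 shared days, by 0.23 to 1.22 percentage points. The ipsilateral share was above sham in 2 of 4 shared days, and above the contralateral share in 2 of 4. These shares were given no test. In cortex taken whole, fewer cells of a type and less of a miRNA per cell cannot be told apart. The means were 11.9% ± 0.41 (SD, n = 4), 12.3% ± 0.65 (SD, n = 4) and 12.3% ± 0.41 (SD, n = 5). The median level of the members was 1.15 ± 0.10 (SD, n = 4), 1.12 ± 0.08 (SD, n = 4) and 1.13 ± 0.08 (SD, n = 5) in the same order.

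**Figure D4:**
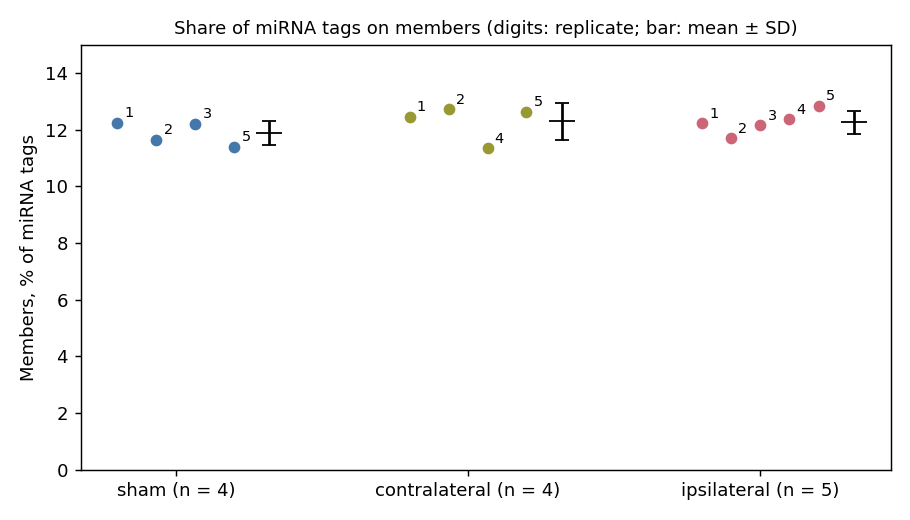
Share of miRNA tags that fell on the 195 members, in percent, for each library (points, with the replicate number beside each) and as mean ± SD per group (bars). All 13 libraries lie between 11.3% and 12.9%, and the groups overlap.

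No member was called between groups. Of the 195 members, 172 passed the filter on low counts, among 1427 miRNAs tested. In the ipsilateral hemisphere against sham, edgeR's quasi-likelihood test called 0 of 172 members (over all miRNAs, 0 of 1427, or 0%), with 4 members at an unadjusted p under 0.05 (2.33%, beside 2.45% of all miRNAs). Of these, 3 were higher and 1 lower, where 1.05% and 1.4% of all miRNAs were. DESeq2 also called 0, with 2 members at an unadjusted p under 0.05. The median log2 fold change was 0.02 in the members and 0.00 in all miRNAs, and the members' values ran from -0.89 to 0.65 with a median SE of 0.28.

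The member with the smallest p in that comparison was miR-6991-5p, the 5p arm of a hairpin in an intron of 2700081O15Rik. It had 20, 21, 11 and 11 tags in the sham libraries, 30, 17, 4 and 4 in the contralateral and 5, 9, 13, 3 and 0 in the ipsilateral. Per 10000 miRNA tags that was 3.58 to 5.28 in sham, 2.73 to 4.86 in the contralateral and 0.00 to 3.42 in the ipsilateral libraries. The sham and ipsilateral values did not overlap, but the 0.00 is that of ipsilateral replicate 5. There a count of 0 allows up to 7.79 tags per 10000, above all sham values, so that library cannot show a separation. The log2 fold change was -0.89 (SE 0.33, unadjusted p = 0.0104), and the edgeR adjusted p was 1.

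The members with positive fold changes and the smallest p were miR-6917-3p (log2 0.63, SE 0.26), miR-6938-3p (0.61, SE 0.28) and miR-6901-3p (0.44, SE 0.22), with unadjusted p of 0.0203, 0.0331 and 0.0462. Sham and ipsilateral libraries did not overlap in miR-6938-3p and miR-6901-3p. Per 10000 miRNA tags miR-6901-3p had 7.33, 5.78, 7.63 and 7.68 in sham and 8.63, 8.54, 10.8, 11.7 and 12.98 in the ipsilateral libraries, all 5 above all 4. The highest values, 11.7 and 12.98, came from replicates 4 and 5, the shallowest libraries, with 11132 and 3851 miRNA tags in all, so they rest on few tags. Counted in TMM-normalized tags, 2 members (1.16%) were higher and 1 (0.581%) lower without overlap, where 0.631% and 0.701% of all miRNAs were. The next negative fold changes by p were those of miR-6979-3p (-0.46, SE 0.25, unadjusted p of 0.0739) and miR-6964-3p (-0.36, SE 0.24).

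Against the contralateral hemisphere, the ipsilateral libraries again gave 0 of 172 members called by edgeR (0% of all miRNAs) and 0 by DESeq2. Unadjusted p was under 0.05 in 6 members in edgeR (3.49%, beside 3.64% of all miRNAs) and in 1 in DESeq2. In edgeR 4 were higher and 2 lower, where 2.03% and 1.61% of all miRNAs were. The smallest p was again that of miR-6991-5p (log2 -0.94, SE 0.34, unadjusted p 0.00883). Both comparisons use the same ipsilateral libraries, so this is not a second measurement of them. In miR-6964-3p (-0.61, SE 0.24, edgeR unadjusted p = 0.0149) the contralateral libraries had 8.10, 10.0, 6.86 and 7.52 tags per 10000. The ipsilateral libraries had 5.47, 6.23, 5.26, 6.29 and 2.60, without overlap. The 2.60 is 1 tag in ipsilateral replicate 5. There even a count of 0 allows up to 7.79 per 10000, above the 6.86 and 7.52, so that library cannot show a separation. The third by p was miR-6906-5p (-0.55, SE 0.28). The positive fold changes with the smallest p were those of miR-6900-3p (0.93, SE 0.39), miR-6962-5p (0.74, SE 0.32) and miR-6989-3p (0.67, SE 0.30). Without overlap stood 1 member higher (miR-6903-5p, named after its values were seen) and 1 lower, each 0.581%, beside 0.42% and 0.841% of all miRNAs.

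Between the contralateral hemisphere and sham, edgeR called 0 of 172 members (0% of all miRNAs) and DESeq2 0. Here 4 members in edgeR (2.33%, beside 3.01% of all miRNAs) and 1 in DESeq2 had an unadjusted p under 0.05. In edgeR 3 were higher and 1 lower, where 1.68% and 1.33% of all miRNAs were. They were miR-6999-5p (log2 0.65, SE 0.25, unadjusted p 0.0128), miR-6906-5p (0.63, SE 0.27), miR-6971-3p (0.49, SE 0.23) and miR-6910-5p (-0.91, SE 0.43), the last followed by miR-6973a-5p (-0.53, SE 0.28) and miR-6934-5p (-0.56, SE 0.32). Tags per 10000 of miR-6999-5p were 7.15, 3.77, 7.63 and 4.68 in sham and 11.5, 7.57, 6.86 and 7.52 in the contralateral libraries, which overlapped. A single member, miR-6937-5p (named after its values were seen), was lower without overlap, or 0.581% beside 1.26% of all miRNAs.

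No member hairpin was called for a different arm ratio between groups. For each of the 3 comparisons, edgeR's group-by-arm term called 0 of 95 member hairpins (0% of 622). Unadjusted p was under 0.05 in 2, 2 and 3 member hairpins, beside 13, 12 and 13 of all 622. Limma on the log2 ratios also called 0. The smallest unadjusted p, 0.00676, was that of miR-6952 in the contralateral libraries against sham: the log2 ratio of 5p to 3p was lower by a difference of -1.36 (SE 0.48).

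Between days of surgery 2 members differed, a share near that of all miRNAs. This comparison of replicate numbers was added after the data were seen. In the edgeR fit with group and replicate number, 2 of 172 members (1.16%, beside 1.68% of all miRNAs) differed between days: miR-6984-3p (adjusted p = 0.000478) and miR-6931-5p (adjusted p = 0.0133). In miR-6984-3p the sham libraries of replicates 1, 2, 3 and 5 had 476, 90, 63 and 78 tags, the contralateral of replicates 1, 2, 4 and 5 had 533, 136, 30 and 89, and the ipsilateral of replicates 1 to 5 had 312, 105, 97, 34 and 42. Per 10000 miRNA tags the 3 libraries of replicate 1 had 85.1, 86.4 and 89.8. The other 10 had 22.6 to 36.8, apart from contralateral replicate 5 (60.8) and ipsilateral replicate 5 (109, from 42 tags).

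In miR-6931-5p, from an intron of Dcakd, the replicate 1 libraries had 16.3, 16.9 and 18.1 tags per 10000 and the other 10 had 4.49 to 15.8, with no overlap. Set against the mean of replicates 2 to 5, replicate 1 was higher in 6 members and lower in 0 (3.49% and 0%, beside 2.31% and 0.0701% of all miRNAs). The log2 differences were 1.67 (SE 0.27) in miR-6984-3p, 1.05 (SE 0.20) in miR-6931-5p, 0.97 (SE 0.25) in miR-6946-5p, 0.71 (SE 0.19) in miR-6975-3p, 0.68 (SE 0.19) in miR-6961-3p and 0.65 (SE 0.19) in miR-6957-5p, which was named after its values were seen. Without the libraries of replicate 1, 0 members and 3 miRNAs in all differed between the remaining days. Without those of replicate 5, 5 members and 44 miRNAs did. Without those of replicate 2, the counts were 2 and 13.

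The libraries of replicate 1 also had the highest shares of intron and intergenic peak tags, given above. The 3 highest members took 15.9% to 17.5% of the class tags in replicate 1, 19.6% in ipsilateral replicate 5, 12.99% in contralateral replicate 5 and 7.80% to 10.6% in the remaining 8. The class as a whole took 12.2% to 12.5% of miRNA tags in replicate 1 and 11.3% to 12.9% in the other 10. Whether the peak make-up plays a part in the members' difference was not tested.

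**Figure D5:**
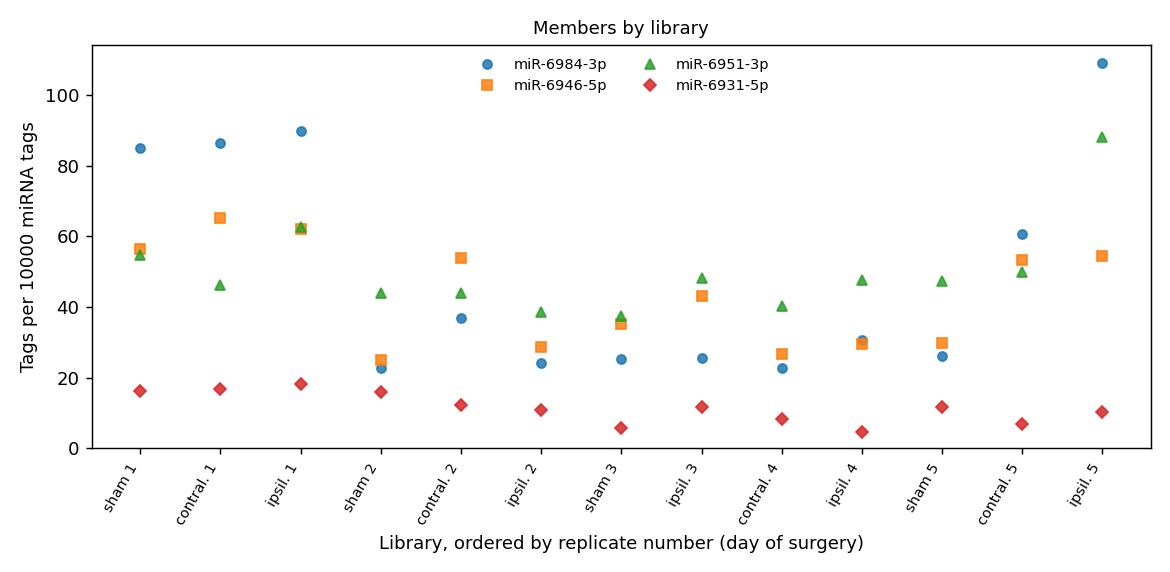
Tags per 10000 miRNA tags of 4 members in the 13 libraries, ordered by replicate number, which stands for the day of surgery. Levels of miR-6984-3p lie at 85.1 to 89.8 in the 3 libraries of replicate 1 and below 37 in the others except contralateral and ipsilateral replicate 5.

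AGO peaks on other RNAs did not touch the member loci. Of 100 member hairpins, all of them searched, 0 overlapped any of the 18284 peaks, and 36 of 847 other hairpins (4.25%) did. Within 30 bases of the 158 arms with a position there was also 0. The host transcripts themselves were found in part: 31 of 96 host genes had a peak, led by Camk2a, a synaptic kinase gene, with 1697 tags, Aff4 (410), Sptan1 (366) and Spock2 (165). The Spearman rank correlation of host peak tags with mean arm level was 0.11, as a description over hosts in the same libraries, and the 33 hairpins in hosts with a peak had a median level of 1.33 against 1.15 in 67 without. The arms of miR-6982, from Camk2a, had a mean level of 0.75.

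Of 13 genes of the mirtron and miRNA pathway, 4 had AGO peaks: Dicer1 (109 tags), Ago2 (41), Zcchc11, which adds uridines to small RNAs (31), and Ago1 (20). The debranching enzyme gene Dbr1, the exporter gene Xpo5, and Drosha and Dgcr8 had no peak. Dicer1 had 3.54, 2.53 and 2.19 tags per 10000 peak tags over the sham, contralateral and ipsilateral libraries, as pooled values without a test.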

How the data were processed

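AGO CLIP tags of 13 libraries were used. The 2 deposited tables hold raw counts: tags on each mature miRNA, and tags in each AGO peak. Per the submitters' processing notes the build was mm10 and the aligner Novoalign, and per the labels' protocols reads were 50 bases, single-end, cloned by BrdU capture. No source used here gives the matching of tags to mature miRNAs or the collapsing of duplicates, so tags may not be independent molecules, and limits cover counting error only. Members and lists were chosen with earlier results of these data known.

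Groups were compared with edgeR 4.0.16 (quasi-likelihood, TMM, filterByExpr, 13 libraries in 1 fit, two-sided, Benjamini-Hochberg over 1427 miRNAs, biological coefficient of variation 0.206). Arms were compared as 2 columns per library with library as block. Each SE was derived as the absolute log2 value divided by the square root of edgeR's F statistic, and can be too small where the log2 value is near 0. DESeq2 1.42.0 and limma 3.58.1 (pseudocount 0.5) were alternatives, with other scalings, no filter, replicate block and libraries left out in turn. The series text says that a replicate number is a day of surgery, so numbers pair libraries. Correlations of deviations between same-numbered libraries were -0.058 to 0.244. None are given for libraries of different numbers, so this range alone cannot show how much the pairing matters. The tests were checked on simulated data with known changes. Of 100 miRNAs changed 2-fold, 68% were recovered in ipsilateral against sham. In ipsilateral against contralateral it was 59%, and in contralateral against sham 69%. Of 100 changed 4-fold, 97%, 96% and 98% were recovered, in the same order. A 2-fold change in a single member could thus be missed. Introns were read from GENCODE M21. Named were the 10 highest and 5 lowest members, members at 3 or more times the median, the 5 largest arm biases each way, the 3 smallest p each way per comparison, and shared seeds. Animals per library are not stated, so p-values measure the spread between libraries.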

Additional observations from a re-analysis of the deposited data

Results flagged for a closer look

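Within groups of 4 or 5 libraries, 168 sets of values of the named members and the class share were searched for a library whose gap to its nearest neighbour was too large for the range of the group (Dixon's rule), and 12 (7.14%) had one. Chance alone gives about 5% of groups. The 3 with most tags were miR-6984-3p in sham replicate 1 (85.1 tags per 10000 miRNA tags, 476 tags, against 22.6 to 26.1 in the other sham libraries), miR-6975-3p in sham replicate 1 (21.5, 120 tags, against 14.03 to 14.6) and miR-6999-5p in contralateral replicate 1 (11.5, 71 tags, against 6.86 to 7.57). In miR-6979-3p, contralateral replicate 1 had 7.13 per 10000 against 5.34 to 5.47. In miR-6984-5p, contralateral replicate 5 had 17.8 against 12.2 to 12.98. In miR-6987-3p, sham replicate 3 had 6.83, below 9.02 to 9.30 in the others.

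The remaining 6 rested on 1 to 10 tags each. In ipsilateral replicate 5, miR-6906-5p had 20.8 per 10000 (8 tags) against 3.46 to 7.48, miR-6940-3p had 5.19 (2 tags) against 1.31 to 1.84, and miR-6964-3p had 2.60 (1 tag), below 5.26 to 6.29. In ipsilateral replicate 4, miR-6931-3p had 8.98 (10 tags) against 2.60 to 4.32. In contralateral replicate 4, miR-6970-3p had 4.57 (6 tags) against 1.62 to 2.05. In sham replicate 3, miR-6981-3p had 3.21 (8 tags) against 2.00 to 2.15.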

How the results depend on the processing

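The counts of 0 called miRNAs and members in each of the 3 comparisons were 0 under all 19 alternatives (DESeq2, RLE factors, library totals, no filter, the 2 groups alone, the replicate block, and each library left out), and the replicate block, which gave 0, changed no other call. Arm ratios changed between groups were likewise 0 under 15 alternatives. Hairpins with more 3p tags numbered 38 to 44 and with more 5p tags 23 to 27. The median level of members was 1.16 to 1.21 with a library left out, 1.22 against miRNAs outside the class, and 0.69 against miRNAs with at least 200 tags, a higher reference by construction. The log2 ratio of class shares was 0.05 (ipsilateral against sham; 0.03 to 0.06 with a library left out), 0.00 (ipsilateral against contralateral; -0.04 to 0.01) and 0.05 (contralateral against sham; 0.03 to 0.09). With only miRNAs below 3 times the median as denominator, the first 2 were 0.53 and 0.42, and 0.04 and -0.07 when ipsilateral replicate 5 was also left out, an alternative chosen after seeing the data. The day of surgery, also added after seeing the data, called 20 to 27 miRNAs and 2 members under other scalings and without the filter. With a day left out it called 3 to 44 miRNAs and 0 to 5 members (replicate 1: 3 and 0; replicate 2: 13 and 2; replicate 5: 44 and 5). Depth limits the precision of single members: the median member had 1 to 27 tags per library.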
